A study of Mus musculus with 4 samples.

Results

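The chemokine and inflammatory cytokine genes *Ccl2*, *Ccl5*, *Ccl7*, *Cxcl1*, *Cxcl5*, *Cxcl10*, *Cxcl12*, *Cx3cl1*, *Il6* and *Csf1* were followed in RNA-Seq of brown preadipocytes, and make up 10 of the 22463 genes listed. They were taken by name, and for a gene with several RefSeq transcripts the transcript with most reads over the libraries was used. Preadipocytes came from the interscapular brown fat of E18.5 C57BL/6J mouse embryos of genotype Mll3-/-;Mll4 f/f and were immortalized with SV40T, a viral oncogene delivered by retrovirus. All libraries therefore lack MLL3, a histone methyltransferase disrupted by gene trap in the germline, and all cells carry SV40T. Cells received adenovirus in both arms. Ad-GFP gave Mll3-/- cells, which the labels call WT and which are called control cells below although they lack MLL3. Ad-Cre gave Mll3-/-;Mll4-/- cells, called double KO cells, in which Cre had removed floxed exons of *Mll4* (listed as *Kmt2d*), the gene for the related methyltransferase MLL4. RNA was collected from each arm at day 0, when cells had been confluent for 2 days, and at day 2 of adipogenesis, after exposure to insulin, T3, indomethacin, dexamethasone and IBMX. Each of the 4 conditions was sequenced as 1 library, and time in culture and the added agents cannot be told apart between the days.

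Chemokines are small secreted proteins that direct the movement of leukocytes by binding G protein-coupled receptors. They are grouped by the spacing of their first cysteines into CC, CXC and CX3C families, and CXC members that carry the ELR motif mainly attract neutrophils. Stromal cells and preadipocytes of fat are known sources of CCL2, CXCL12 and the myeloid growth factor CSF1, and many chemokine genes are classical targets of NF-κB, AP-1 and interferon signalling.

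Mapped reads implied by the deposited values ran from 17198448 to 22986362 per library, and 3 reads at an exon length of 1 kb are equal to 0.131 to 0.174 RPKM (reads per kb of exon, scaled to the mapped reads of the library). *Kmt2d* gave between 5595 and 8530 reads in each library, and counts over a whole transcript cannot show the loss of a few exons. The pan-leukocyte gene *Ptprc* and the myeloid genes *Adgre1* and *Tyrobp* had 0 reads in every library, and the summed RPKM of the 9 leukocyte and macrophage markers found (of 10 listed) ran from 1.02 to 2.97. Only *Cd14*, a coreceptor for lipopolysaccharide, was above 1 RPKM among them, with 52 and 16 reads in control cells and 74 and 29 reads in double KO cells at day 0 and day 2. Summed RPKM of 6 endothelial markers ran from 0.0536 to 0.345. Fibroblast markers were abundant, with *Col1a1*, a fibrillar collagen chain, between 65.8 and 1246 RPKM. Of 6 brown adipocyte markers, *Ucp1* and *Cidea* had at most 1 read per library, *Dio2* at most 5 and *Ppargc1a* at most 9. *Ebf2* was at between 4.77 and 16.1 RPKM in every library. *Prdm16* was at 0.554 and 2.14 RPKM in control cells and 0.691 and 0.677 RPKM in double KO cells at day 0 and day 2. All 7 general adipocyte markers had risen past 2.5-fold by day 2 in both arms. Of all genes above 1 RPKM in any library, 8.43% had in control and 9.61% in double KO cells. Across genes, the double KO day 2 library stood apart. From the shortest to the longest of 20 bins of exon length, its median log2 ratio to double KO day 0 went from 0.91 to −0.67 and its ratio to control day 2 from 0.54 to −0.80, whereas bin medians lay between −0.18 and 0.18 in the comparisons without it. For the 10 genes, ratios that use this library are therefore also given after division by the median ratio of genes of similar length, called the division by length below. In bulk RNA, fewer cells that express a gene and less RNA per cell cannot be told apart.

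**Figure D1:**
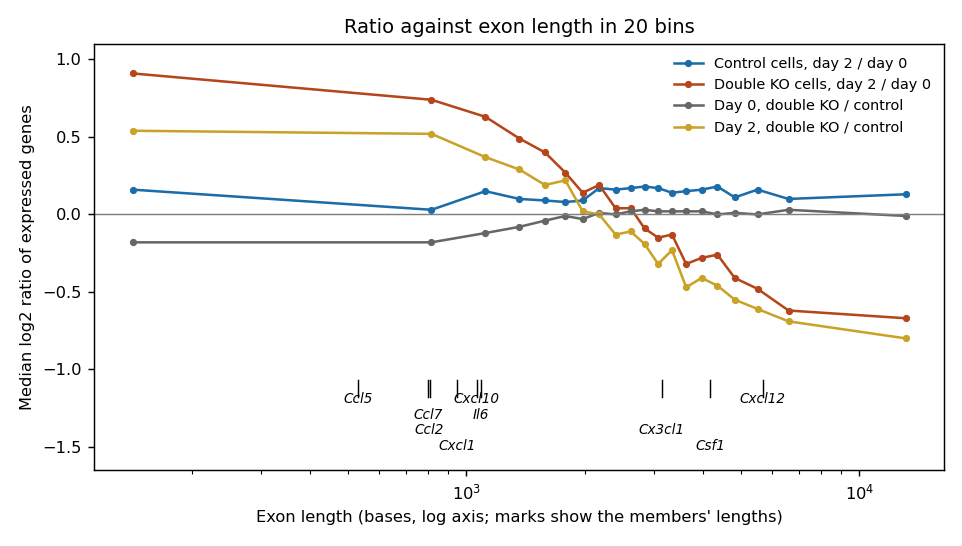
Median log2 ratio of expressed genes in 20 bins of exon length (x axis, bases on a log scale) for each comparison (lines), with the lengths of the chemokine and cytokine transcripts marked below. Both lines that use the double KO day 2 library fall with length, from 0.91 to −0.67 and from 0.54 to −0.80, and the other lines stay between −0.18 and 0.18.

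Of these genes, 6 lie near others of the set. On NCBI37/mm9, *Ccl2* (chr11:81849073-81850955) and *Ccl7* (chr11:81859214-81861027) are neighbours on the plus strand of chromosome 11, with 8.26 kb between them. *Ccl5* lies 1478 kb further along, at chr11:83339280-83344020 on the minus strand. On chromosome 5, *Cxcl5* (chr5:91188325-91190651) and *Cxcl1* (chr5:91320267-91322141) lie 130 kb apart on the plus strand, and *Cxcl10* (chr5:92775664-92777915, minus strand) 1454 kb from *Cxcl1*. *Il6* is on the same chromosome at chr5:30339701-30346508. *Cxcl12* (chr6:117118553-117131385), *Cx3cl1* (chr8:97295909-97306323) and *Csf1* (chr3:107543966-107563387, minus strand) stand elsewhere. No 50-base window of the annotated transcripts of these genes matched the genome outside its own locus with at most 2 mismatches, except for 5.73% of the windows of *Cxcl5*. Of the exon bases of *Cxcl10*, 8.75% overlap exons of *Art3* on the opposite strand, and no other gene of the 10 overlaps exons of another gene.

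Upstream sequences are shown for the 6 genes found in a RefSeq promoter table (assembly GRCm38.p6), so that matches to known motifs can be described. A relation of these matches to the levels was not tested. Each run of 250 bases ends just before the RefSeq start and matched NCBI37/mm9 exactly at the coordinates given. The gene coordinates above are those of GENCODE, whose starts differ for 3 of the 6 genes, so that the run of *Cx3cl1* reaches 171 bases and that of *Cxcl1* 4 bases into the GENCODE gene, and that of *Il6* stops 47 bases short of it. Capitals mark matches, on either strand, to the κB consensus, C/EBP (TTGCNNAA), AP-1 (TGANTCA), the interferon response element core (AAANNGAAA) and TATAAA.
Cxcl1, chr5:91320021-91320270, plus strand: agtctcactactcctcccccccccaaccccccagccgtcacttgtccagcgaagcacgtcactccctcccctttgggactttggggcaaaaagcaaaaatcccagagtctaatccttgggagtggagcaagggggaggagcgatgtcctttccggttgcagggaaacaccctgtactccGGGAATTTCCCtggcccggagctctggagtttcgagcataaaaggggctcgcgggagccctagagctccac
Cxcl10, chr5:92777916-92778165, minus strand: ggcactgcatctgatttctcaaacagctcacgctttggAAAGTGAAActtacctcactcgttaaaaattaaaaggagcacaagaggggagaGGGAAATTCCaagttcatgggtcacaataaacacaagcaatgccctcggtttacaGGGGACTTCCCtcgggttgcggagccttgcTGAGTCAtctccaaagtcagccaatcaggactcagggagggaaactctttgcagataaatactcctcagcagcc
Il6, chr5:30339404-30339653, plus strand: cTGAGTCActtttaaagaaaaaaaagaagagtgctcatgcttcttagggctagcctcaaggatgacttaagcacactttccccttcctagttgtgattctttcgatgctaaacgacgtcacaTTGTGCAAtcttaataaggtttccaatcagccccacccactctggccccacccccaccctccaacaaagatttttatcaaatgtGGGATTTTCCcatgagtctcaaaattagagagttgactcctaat
Csf1, chr3:107563388-107563637, minus strand: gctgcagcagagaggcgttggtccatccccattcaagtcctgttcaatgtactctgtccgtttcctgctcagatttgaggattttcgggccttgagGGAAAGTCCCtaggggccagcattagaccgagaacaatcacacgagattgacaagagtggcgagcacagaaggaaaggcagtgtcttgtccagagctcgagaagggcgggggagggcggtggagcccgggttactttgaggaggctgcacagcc
Cxcl12, chr6:117118303-117118552, plus strand: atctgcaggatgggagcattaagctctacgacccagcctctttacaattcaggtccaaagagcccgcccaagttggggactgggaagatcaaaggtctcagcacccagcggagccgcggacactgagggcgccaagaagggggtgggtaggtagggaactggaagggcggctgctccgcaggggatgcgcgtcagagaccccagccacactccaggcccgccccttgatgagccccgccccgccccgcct
Cx3cl1, chr8:97295830-97296079, plus strand: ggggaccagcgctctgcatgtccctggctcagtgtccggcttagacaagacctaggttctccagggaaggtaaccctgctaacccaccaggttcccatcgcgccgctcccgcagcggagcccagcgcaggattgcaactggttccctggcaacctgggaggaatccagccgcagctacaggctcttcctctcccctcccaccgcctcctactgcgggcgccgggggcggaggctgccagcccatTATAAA
Of these 6 promoters, searched from 250 bases before to 50 after the start, 4 held a κB match, against 8.49% of all 32544 promoters in the table. *Cxcl1* held it from −71 to −61, as overlapping matches on both strands, and *Il6* from −44 to −35. *Csf1* held it from −154 to −145 on the minus strand. *Cxcl10* held κB matches from −159 to −150 and, as overlapping matches, from −104 to −94, together with an interferon response core from −212 to −204 and an AP-1 match from −74 to −68. *Il6* also held an AP-1 match from −249 to −243 and a C/EBP match from −128 to −121. An AP-1 match was found in 7.79%, a C/EBP match in 10.8%, an interferon response core in 10.5% and TATAAA in 13.6% of all promoters. *Cxcl12* held no match to any of the 5 motifs, and *Cx3cl1* held TATAAA alone, ending at −1. These are matches of letters in a short window, and binding at them was not measured here.

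By the transcript used for each gene, levels ranged from 229 RPKM for *Cxcl12* in control cells at day 0 to *Cxcl5* without a read. At day 0, 8 of the 10 genes were above 1 RPKM in each arm, and at day 2 only *Cxcl12*, *Csf1* and *Cx3cl1* were, in each arm. The summed RPKM of the 10 genes was 386 in control cells at day 0 and 89.5 at day 2, and 208 in double KO cells at day 0 and 69.9 at day 2. *Cxcl12* alone made up 59.3%, 71.1%, 40.0% and 50.1% of these sums. The other 7 genes, without *Cxcl12*, *Csf1* and *Cx3cl1*, had 400 and 394 reads at day 0 in control and double KO cells, and 22 and 38 reads at day 2. The 8 genes above 1 RPKM in any library are called expressed below, by the rule that left 11861 of all genes.

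**Figure D2:**
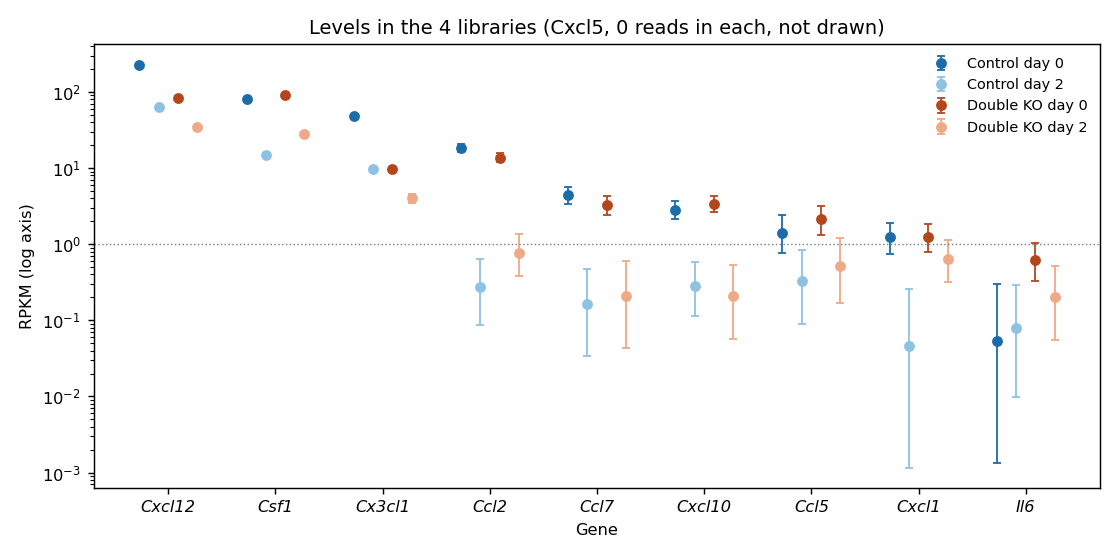
RPKM (log axis) of 9 of the 10 genes in each of the 4 libraries (points, coloured by library), with exact Poisson 95% intervals that cover counting error only. For the 8 genes to the left of *Il6*, both day 2 points lie below the day 0 point of the same arm. At day 0 the intervals do not overlap between the arms for *Cxcl12*, *Cx3cl1* and *Ccl2*, lower in double KO cells, and *Csf1* and *Il6*, higher in them.

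Before and during adipogenesis were compared within each arm to ask how these genes change as preadipocytes enter differentiation. In control cells, all 8 expressed genes were over 2.5-fold lower at day 2 than at day 0, by 3.6-fold to 67.9-fold, and none was higher. Over all expressed genes, 13.0% were over 2.5-fold lower and 8.43% higher. The median log2 ratio was −2.87 over the 8 genes and 0.14 over all expressed genes. However, *Ccl2*, *Ccl7*, *Ccl5*, *Cxcl1* and *Cxcl10* were above 1 RPKM only at day 0, so they counted as expressed through the day at which they were high, and the counts and medians over the 8 genes are descriptions that are not read against the background. *Cxcl12*, *Csf1* and *Cx3cl1*, above 1 RPKM in every library, were all over 2.5-fold lower at day 2 in control cells. In double KO cells, *Ccl2*, *Ccl7*, *Ccl5*, *Cxcl10* and *Csf1* were over 2.5-fold lower at day 2, 5 of the 8 genes, and none was over 2.5-fold higher. The background was 10.4% lower and 9.61% higher, and the medians were −1.85 over the 8 genes and −0.01 over all expressed genes. *Cxcl12*, *Cx3cl1* and *Cxcl1* were 2.37-fold, 2.39-fold and 1.93-fold lower in double KO cells, short of the cutoff. After the division by length, *Cxcl1* was 3.23-fold lower, past it, and *Cxcl12* and *Cx3cl1* were 1.71-fold and 2.15-fold lower. Ratios with 1 library on each side have no replicate check, and their exact binomial 95% intervals cover counting error, compare the libraries, and say nothing of the spread between cultures.

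The arms were then compared on each day, to ask what differs once MLL4 is lost as well as MLL3. The arms also differ in the gene that the adenovirus carried, GFP or Cre. This difference and the loss of MLL4 cannot be told apart here. At day 0, *Cxcl12* and *Cx3cl1* were over 2.5-fold lower in double KO than in control cells, 2 of the 8 genes, and none was over 2.5-fold higher. The background was 4.17% lower and 2.08% higher, and the medians were −0.20 over the 8 genes and −0.02 over all expressed genes. At day 2, *Ccl2* and *Cxcl1* were over 2.5-fold higher in double KO cells, on 11 reads each, and none was over 2.5-fold lower. After the division by length, *Cxcl1* and *Csf1* were past the cutoff and *Ccl2* was not. The background was 9.59% higher and 9.87% lower, and the medians were 0.51 and −0.14. These comparisons share their libraries with those between days, so the 4 sets of ratios are not independent.

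**Figure D3:**
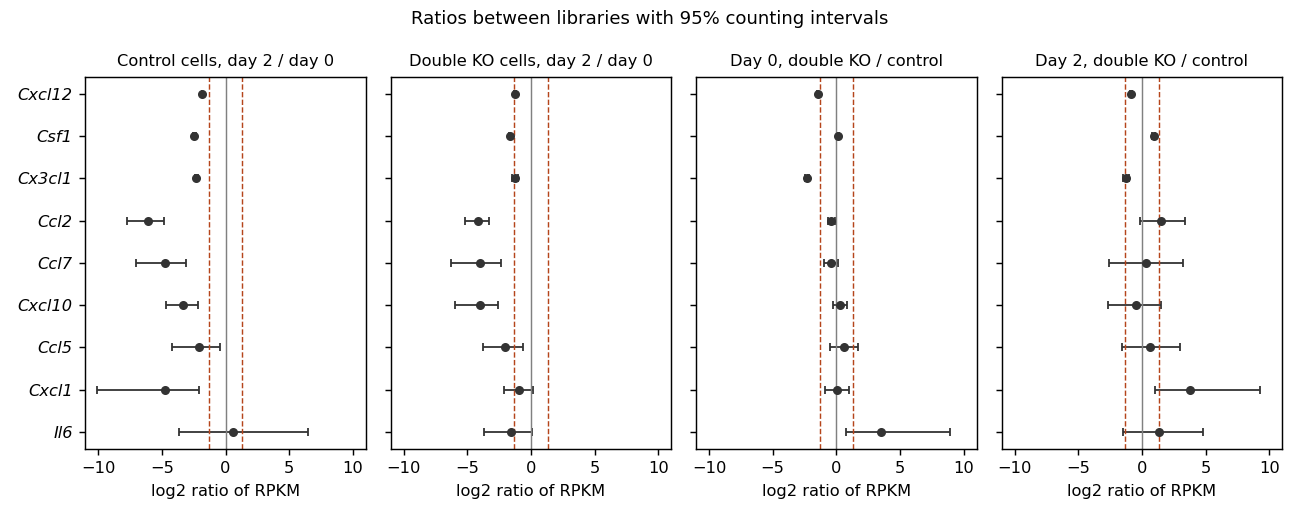
Log2 ratio of RPKM between libraries (x axis) for 9 genes (rows) in the 4 comparisons (panels), with exact binomial 95% intervals for counting error; dashed lines mark 2.5-fold. All 8 expressed genes lie left of the cutoff between days in control cells, and *Cxcl12* and *Cx3cl1* lie left of it between arms at day 0.

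**Figure D4:**
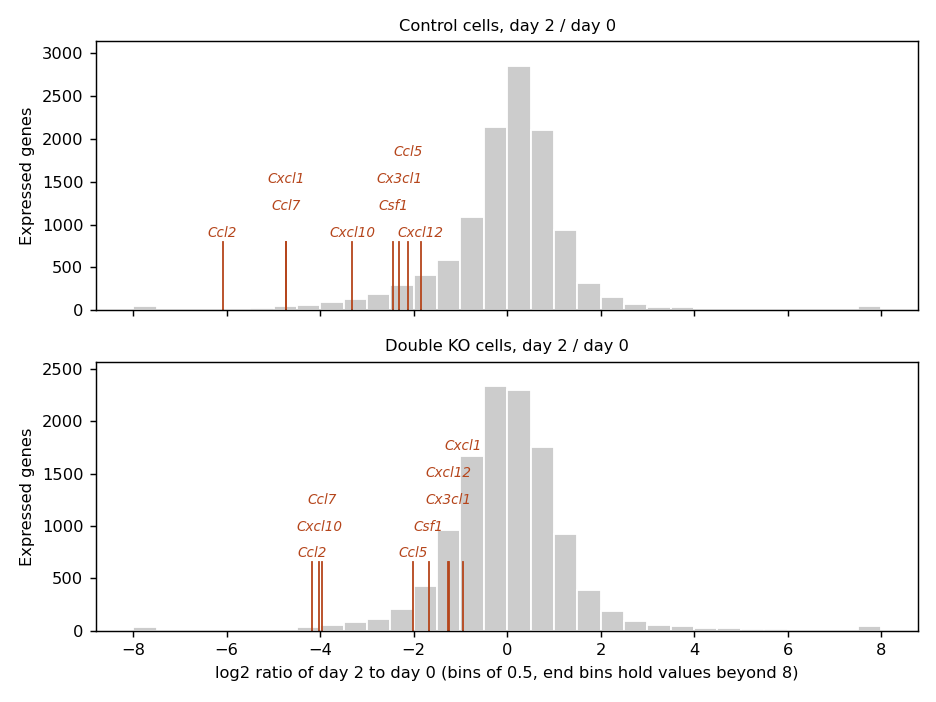
Number of expressed genes (bars, y axis) by log2 ratio of day 2 to day 0 (x axis, bins of 0.5) in control cells (top) and double KO cells (bottom), with the 8 expressed chemokine and cytokine genes as red lines. The red lines run from −6.09 to −1.85 in control cells and from −4.17 to −0.95 in double KO cells.

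Among the CC chemokines, *Ccl2*, which encodes the main monocyte attractant, had 254 reads in control cells at day 0 and 5 at day 2, and 215 reads in double KO cells at day 0 and 11 at day 2. Both day 0 libraries were far above both day 2 libraries. It was 67.9-fold lower at day 2 in control cells (95% interval 28.7 to 211) and 18.1-fold lower in double KO cells (9.9 to 36.7), which became 30.2-fold after the division by length. At day 0 it was 1.34-fold lower in double KO cells (1.11 to 1.61), and 1.18-fold lower after the division by length. At day 2 the ratio of double KO to control was 2.8, with an interval of 0.898 to 10.3 that includes 1, and the log2 ratio went from 1.49 to 0.97 on division by the ratio of genes of similar length.

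*Ccl7*, the neighbouring gene for a further monocyte attractant, followed *Ccl2* at a lower level. It had 60 and 3 reads in control cells and 51 and 3 reads in double KO cells at day 0 and day 2. The ratio of day 2 to day 0 was 0.0374 in control cells (0.0075 to 0.115) and 0.0637 in double KO cells (0.0127 to 0.197), or 0.0381 after the division by length. Between the arms the log2 ratio was −0.42 at day 0 (−0.98 to 0.15) and 0.35 at day 2 (−2.55 to 3.25), so that neither interval excludes equal levels, and the day 2 value became −0.17 on the division. *Ccl5*, whose product attracts T cells and monocytes, was near the detection limit throughout, with 13 and 4 reads in control cells and 22 and 5 reads in double KO cells. It was 4.34-fold lower at day 2 in control cells (1.34 to 18.3) and 4.07-fold lower in double KO cells (1.5 to 13.7), the latter becoming 7.63-fold after the division by length. A difference between the arms was not detectable at this depth, with log2 ratios of 0.58 at day 0 (−0.48 to 1.69) and 0.67 at day 2 (−1.54 to 3.01; 0.13 after the division).

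Of the ELR-type CXC chemokines, *Cxcl1*, a neutrophil attractant, had 20 reads in control cells at day 0 and 1 at day 2, and 23 reads in double KO cells at day 0 and 11 at day 2. The control day 2 library was the low one. The ratio of day 2 to day 0 was 0.0374 in control cells (0.000903 to 0.234) and 0.518 in double KO cells (0.228 to 1.11), where the division by length gave 0.31, past the cutoff. At day 0 the arms gave 1.23 and 1.24 RPKM, and at day 2 the ratio of double KO to control was 14.0 (2.04 to 604), or 9.79 after the division, resting on 1 read in control cells. *Cxcl5*, for a related neutrophil attractant, had 0 reads in all libraries, and the 95% limit on its expected count was 3.69 reads in each. *Cxcl10*, an interferon-induced attractant of activated T cells, had 52 and 7 reads in control cells and 70 and 4 reads in double KO cells. Both day 2 libraries lay below both day 0 libraries. It was 9.93-fold lower at day 2 in control cells (4.49 to 25.9) and 16.2-fold lower in double KO cells (6.04 to 61.0), the latter ratio being 0.0401 after the division by length. The log2 ratio between the arms was 0.25 at day 0 (−0.29 to 0.79) and −0.46 at day 2 (−2.68 to 1.52), or −0.82 at day 2 after the division.

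*Cxcl12*, which encodes the CXCR4 ligand that stromal cells use to retain progenitors and lymphocytes, was by its longest transcript the most abundant of the 10 genes in 3 libraries and second to *Csf1* in double KO cells at day 0. By either of its other transcripts it was above *Csf1* in all 4 libraries. The longest transcript, NM_001012477 of 5670 bases, had 22320 reads in control cells at day 0 and 8298 at day 2, and 9184 reads in double KO cells at day 0 and 3579 at day 2. The order was control day 0 (229 RPKM), double KO day 0 (83.0 RPKM), control day 2 (63.7 RPKM) and double KO day 2 (35.0 RPKM), each beyond counting error of the next. At day 0 it was 2.76-fold lower in double KO cells (2.69 to 2.83), a ratio that did not move on division by that of genes of similar length. It was 3.6-fold lower at day 2 in control cells (3.51 to 3.69) and 2.37-fold lower in double KO cells (2.28 to 2.47), the latter 1.71-fold after the division by length. At day 2 it was 1.82-fold lower in double KO cells (1.75 to 1.89), and 1.19-fold lower after the division by length.

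The files list 3 transcripts of *Cxcl12*, which share 345 exon bases in the annotation and differ in their last exons. NM_021704 codes for the α form and has 1530 bases of its own, NM_013655 codes for the β form and has none of its own, and NM_001012477 codes for the γ form and has 2498 bases of its own. A read in a shared exon can count for each transcript, so the 3 values are not independent. At day 0, NM_021704 was at 524 RPKM in control and 248 RPKM in double KO cells, a 2.11-fold lower level that misses the cutoff, and NM_013655 at 334 and 122 RPKM, 2.74-fold lower. At day 2, NM_021704 was at 189 RPKM in control and 146 RPKM in double KO cells and NM_013655 at 97.7 and 56.2 RPKM. Reads on NM_001012477 per read on NM_021704 were 1.32 in control cells at day 0, 1.01 in control cells at day 2, 1.01 in double KO cells at day 0 and 0.724 in double KO cells at day 2. The control day 0 library was thus the high one and the double KO day 2 library the low one. At day 2, division by length turned round the order of the transcripts, with 1.19-fold lower for NM_001012477 and 1.51-fold lower for NM_021704, whereas at day 0 it left 2.76-fold and 2.09-fold.

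*Cx3cl1*, the membrane-tethered chemokine fractalkine, showed the largest difference between the arms at day 0 among the 8 expressed genes. It had 2590 reads in control cells at day 0 and 699 at day 2, and 589 reads in double KO cells at day 0 and 228 at day 2. Control day 0 (47.9 RPKM) was the highest, control day 2 (9.68 RPKM) and double KO day 0 (9.6 RPKM) did not differ beyond counting error, and double KO day 2 (4.02 RPKM) was the lowest. At day 0 it was 4.99-fold lower in double KO cells (4.56 to 5.46), and 1.71% of expressed genes had a lower ratio. It was 4.95-fold lower at day 2 in control cells (4.55 to 5.39) and 2.39-fold lower in double KO cells (2.05 to 2.79), the latter 2.15-fold after the division by length. At day 2 it was 2.4-fold lower in double KO cells (2.07 to 2.81), just short of the cutoff, and 1.93-fold lower after the division.

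Preadipocyte and fibroblast markers did not all differ between the arms in the same direction. At day 0, 4 of the 8 markers were over 2.5-fold lower in double KO than in control cells and none was over 2.5-fold higher. Over all expressed genes, 4.17% were lower and 2.08% higher. The median log2 ratio of the 8 markers was −1.81. *Dlk1*, a preadipocyte surface protein, gave 141 RPKM in control and 10.1 RPKM in double KO cells, and *Pdgfra*, a growth factor receptor of adipocyte progenitors, 73.6 and 9.72 RPKM. *Col3a1*, a collagen chain, gave 287 and 408 RPKM, and *Pdgfrb*, a receptor of mesenchymal cells, 89.9 and 123 RPKM. The summed RPKM of the 8 markers was 2153 in control and 1744 in double KO cells at day 0, and 411 and 663 at day 2. At day 2, 2 of the 8 markers were over 2.5-fold lower in double KO cells and none was over 2.5-fold higher, with a median log2 ratio of 0.32. Over all expressed genes, 9.87% were lower and 9.59% higher. The part of these markers in the levels of *Cxcl12* and *Cx3cl1* was not tested.

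*Csf1* encodes the growth factor of the monocyte and macrophage lineage. Its transcript NM_007778 had 5833 reads in control cells at day 0 and 1439 at day 2, and 7398 reads in double KO cells at day 0 and 2133 at day 2. The levels were 81.2 and 15.0 RPKM in control cells and 90.8 and 28.3 RPKM in double KO cells, so the day 0 libraries were close and the day 2 libraries lower. It was 5.42-fold lower at day 2 in control cells (5.11 to 5.74) and 3.21-fold lower in double KO cells (3.05 to 3.37), the latter 2.69-fold after the division by length. The ratio of double KO to control was 1.12 at day 0 (1.08 to 1.16) and 1.89 at day 2 (1.77 to 2.02), and the day 2 ratio was 2.6, past the cutoff, after the division by length. The transcripts NM_001113529 and NM_001113530 gave ratios of 2.09 and 1.42 at day 2. After the division their log2 ratios were 1.29 and 0.63, short of the cutoff, against 1.38 for NM_007778, so 1 transcript alone passes it. NM_001113530, whose annotated match ends in another 3′ exon, had 594 reads in control and 660 reads in double KO cells at day 2.

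**Figure D5:**
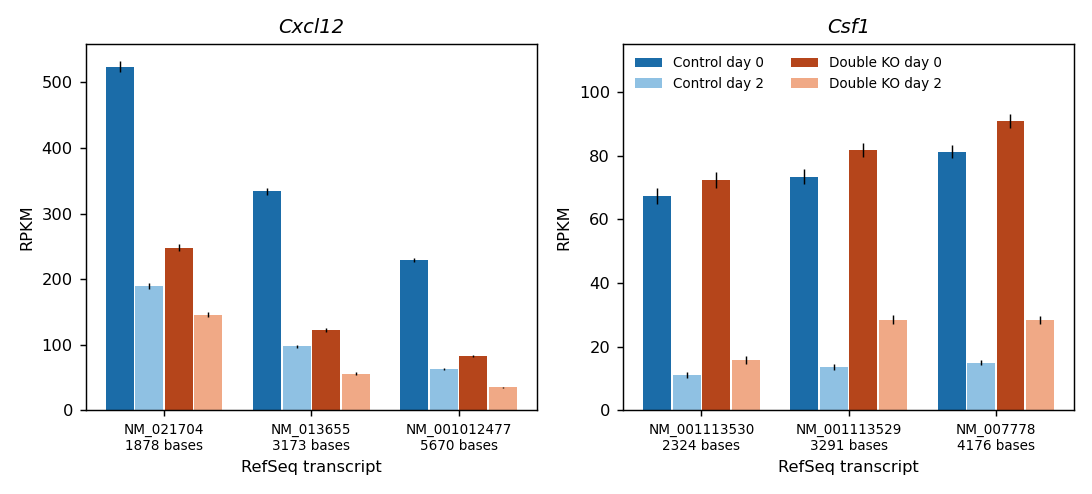
RPKM (y axis, from 0) of the 3 RefSeq transcripts of *Cxcl12* (left) and *Csf1* (right) in the 4 libraries (bars), with exact Poisson 95% intervals. Every *Cxcl12* transcript was highest in control cells at day 0, at 524, 334 and 229 RPKM, and every *Csf1* transcript was higher at day 0 than at day 2 in both arms.

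*Il6*, the cytokine that signals through gp130, stayed below 1 RPKM in all libraries. It had 1 read in control cells at day 0 and 2 at day 2, and 13 reads in double KO cells at day 0 and 4 at day 2, so the double KO day 0 library was the high one. The ratio of double KO to control was 11.5 at day 0 (1.72 to 487) and 2.55 at day 2 (0.365 to 28.2), or 1.98 at day 2 after the division by length. The ratio of day 2 to day 0 was 1.5 in control cells (0.0779 to 88.3) and 0.333 in double KO cells (0.0791 to 1.08), or 0.216 after the division.

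For the 4 genes with at least 5 reads in every library, the difference between the arms in log2 ratio of day 2 to day 0 (double KO minus control) was computed. It was 1.91 for *Ccl2* (95% counting interval 0.36 to 3.46), 0.60 for *Cxcl12* (0.53 to 0.67), 1.05 for *Cx3cl1* (0.80 to 1.30) and 0.76 for *Csf1* (0.65 to 0.87). Day 2 was thus less far below day 0 in double KO than in control cells for each of these 4 genes in these libraries. After the division by length the differences were 1.20, 1.24, 1.37 and 1.19. The levels behind them were not alike. *Cxcl12* and *Cx3cl1* were already 2.76-fold and 4.99-fold lower in double KO cells at day 0. At day 2 they were still 1.82-fold and 2.4-fold lower (1.19-fold and 1.93-fold after the division). The day 2 ratio of double KO to control was 1.89 for *Csf1* (2.6 after the division) and 2.8 for *Ccl2* (1.96), whose interval includes 1. Genes with few reads at day 2 did not all go the same way. *Ccl7* was 26.7-fold lower at day 2 in control and 15.7-fold lower in double KO cells, and *Cxcl1* 26.7-fold and 1.93-fold. *Ccl5* was 4.34-fold (1.34 to 18.3) and 4.07-fold (1.5 to 13.7) lower. *Cxcl10* was 9.93-fold (4.49 to 25.9) and 16.2-fold (6.04 to 61.0) lower, and *Il6* had log2 ratios of 0.58 and −1.59. The intervals of *Ccl5* and of *Cxcl10* overlap between the arms. After the division by length of both ratios, *Ccl7* was 27.3-fold and 26.2-fold lower. *Cxcl1* was then 27.3-fold and 3.23-fold lower, and *Ccl5* 4.86-fold and 7.63-fold. Over the same libraries, all 7 adipocyte markers were over 2.5-fold lower in double KO than in control cells at day 2, beside 9.87% of all expressed genes. Their summed RPKM was 492 against 2005. How far the smaller differences between days go with the state of differentiation was not tested.

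Sequence of the 3′ untranslated region was also described, because AU-rich elements, short repeats of ATTTA, are known to mark unstable cytokine mRNAs. The pentamer ATTTA was found in 9 of the 10 genes, all but *Ccl5*, against 65.7% of 18215 genes with such a region of at least 100 bases. Per kb, it was densest in *Il6* (11.9, 5 copies) and *Cxcl1* (11.8, 7 copies), and 99.5% of those genes had a lower density than either. *Ccl7* had 4.6, *Cxcl5* 4.5, *Ccl2* 3.64, *Cxcl10* 2.74 and *Csf1* 1.89 copies per kb, beside a median of 1.2 over all genes. *Cxcl12* (0.771), *Cx3cl1* (0.536) and *Ccl5*, which held none, were below that median. The value of *Cxcl12* is that of the 5188-base region matched to its longest transcript. The regions of its other transcripts, which had higher RPKM, were not searched. The longer form TTATTTATT was found in *Cxcl1*, with 2 copies, and in *Cx3cl1*, with 1, and in 7.07% of all genes. Decay of mRNA was not measured.

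Of 29 other chemokine genes, 28 were found, 21 had at most 3 reads in every library and 16 of these had none, among them *Cxcl2*, *Cxcl3*, *Ccl3* and *Ccl4*, attractants of neutrophils or monocytes. Only *Ccl9*, *Ccl25*, *Ccl27a* and *Cxcl16* were expressed. Of these 4, *Cxcl16* and *Ccl27a* were over 2.5-fold lower at day 2 in control cells, and *Ccl27a* was higher at day 2 in double KO cells (medians of the 4, −1.09 and 1.20). Between the arms, *Ccl9* and *Ccl27a* were lower in double KO cells at day 0 (median −1.28), and at day 2 *Ccl27a* and *Cxcl16* were higher and *Ccl9* lower (1.41). Ratios in this and the other lists below were not divided by those of genes of similar length. The shares of all expressed genes past 2.5-fold stand beside the counts of each list. Between days, 13.0% were lower and 8.43% higher in control cells, and 10.4% and 9.61% in double KO cells. Between the arms, 4.17% were lower and 2.08% higher in double KO cells at day 0, and 9.87% and 9.59% at day 2. Some list genes counted as expressed only through the library in which they were high, so the counts are descriptions. *Ccl9*, a CCR1 ligand, had 61 and 46 reads in control cells at day 0 and day 2 and 1 and 2 reads in double KO cells, so both control libraries stood above both double KO libraries, although 8.39% of its windows matched elsewhere. The log2 ratio of double KO to control was −6.11 at day 0 (−11.44 to −3.58) and −4.17 at day 2 (−7.26 to −2.24). *Cxcl16*, a membrane-bound chemokine, had 46 and 9 reads in control cells and 35 and 42 reads in double KO cells, and 18.3% of its exon bases overlap *Zmynd15* on the opposite strand. *Ccl27a*, a skin chemokine, had 21 and 11 reads in control cells and 6 and 84 reads in double KO cells, but 57.9% of its 50-base windows matched the genome elsewhere, so that its counts are uncertain.

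Of 26 other cytokines, 10 were expressed. At day 2, 2 were over 2.5-fold higher and 5 lower than at day 0 in control cells (median log2 ratio −1.17), and 1 was higher and 4 lower in double KO cells (−0.33). *Spp1* and *Il1rn*, lower in both arms, were above 1 RPKM only at day 0, so these counts are not read against the background. *Spp1*, the matrix cytokine osteopontin, had 894 and 11 reads in control cells and 297 and 8 reads in double KO cells at day 0 and day 2. *Il1rn*, the interleukin 1 receptor antagonist, had 447 and 56 reads in control cells and 66 and 17 reads in double KO cells. *Kitl*, the stem cell factor, went the other way, with 119 and 2389 reads in control cells and 89 and 335 reads in double KO cells. Between the arms, 1 cytokine was higher and 2 lower in double KO cells at day 0, and 2 were higher and 3 lower at day 2 (medians −0.68 and 0.16). *Tslp*, an epithelial and stromal cytokine, had 10 and 2 reads in control cells and 38 and 13 reads in double KO cells. *Il11*, of the *Il6* family, had 42 and 6 reads in control cells and 25 and 39 reads in double KO cells, and *Tnfsf11*, the osteoclast factor RANKL, 12 and 71 reads against 29 and 18 reads. *Lif*, a further member of that family, was at 16 and 5 reads against 26 and 4 reads, and *Il34*, the other ligand of the *Csf1* receptor, at 29 and 16 reads against 4 and 0 reads, both under 1 RPKM. *Tnf* and *Il1b* had at most 1 read in each library.

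Receptors for these ligands were mostly below 1 RPKM. Of 15 receptor genes, *Ccr1*, *Ccr2*, *Ccr3*, *Cxcr1* and *Cxcr2* had 0 reads in all libraries, and 3 were expressed (median log2 ratios of −0.51 and −0.38 between days in control and double KO cells, and −0.21 and −0.59 between the arms at day 0 and day 2). *Csf1r*, the receptor of CSF1, had between 2 and 16 reads, and *Cxcr4*, the signalling receptor of CXCL12, between 2 and 8 reads. *Ackr3*, the scavenger receptor of CXCL12, had 55 and 25 reads in control cells and 54 and 13 reads in double KO cells, over 2.5-fold lower at day 2 in both arms. *Il6ra*, the IL-6 receptor, had 110 and 346 reads in control cells and 53 and 82 reads in double KO cells, and its log2 ratio of double KO to control at day 2 was −1.73 (−2.09 to −1.38). *Il6st*, which encodes gp130, was at between 41.3 and 59.0 RPKM in every library.

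Of 24 NF-κB factors, inhibitors and targets, 22 were expressed. At day 2, 3 were over 2.5-fold higher and 4 lower than at day 0 in control cells (median log2 ratio −0.21), and 4 were higher and 4 lower in double KO cells (−0.28). *Vcam1*, a leukocyte adhesion molecule, had 1860 and 127 reads in control cells and 617 and 91 reads in double KO cells, and *Ptgs2*, the inducible cyclooxygenase, 336 and 29 reads against 1014 and 65 reads. These target genes were lower at day 2 in both arms, like the chemokines. The targets *Lcn2*, a siderophore-binding protein, and *Sod2*, the mitochondrial superoxide dismutase, were higher at day 2, with 5 and 550 reads and 487 and 2985 reads in control cells, and 4 and 790 reads and 653 and 1368 reads in double KO cells. Between the arms, 1 of the 22 was higher and 3 lower in double KO cells at day 0 (median −0.08), and 3 were higher and 5 lower at day 2 (0.16). *Ptgs2* was higher in double KO cells on both days.

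Inhibitors of NF-κB were among the genes that stood higher in double KO cells at day 2. *Nfkbia*, which encodes IκBα, had 534 and 1138 reads in control cells and 572 and 3391 reads in double KO cells, a log2 ratio between the arms at day 2 of 1.93 (1.83 to 2.02). *Nfkbie*, for IκBε, had 88 and 30 reads against 132 and 71 reads, with a log2 ratio at day 2 of 1.59 (0.96 to 2.26). *Bcl3*, an atypical IκB protein, had 338 and 229 reads in control cells and 32 and 324 reads in double KO cells, so that only the double KO day 0 library was low. *Tnfaip3*, which encodes the inhibitor A20, went the other way, with 85 and 173 reads against 75 and 34 reads, and *Tnfaip2* was lower in double KO cells on both days, with 822 and 457 reads against 185 and 78 reads. *Rela*, for the p65 subunit, was at between 30.7 and 47.7 RPKM in all libraries.

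All 13 JAK-STAT and IRF transducers were expressed. Of these, 4 were over 2.5-fold lower at day 2 in control cells (median log2 ratio −1.0) and 1 in double KO cells (−0.11), and none was higher. *Irf7*, the interferon-induced regulator of interferon genes, had 311 and 38 reads in control cells and 426 and 154 reads in double KO cells, and *Socs1*, a feedback inhibitor of JAK kinases, 235 and 67 reads against 191 and 136 reads. Both were over 2.5-fold higher in double KO than in control cells at day 2, and these were the 2 of 13 that were. *Socs1*, with 1220 annotated exon bases, was only just past the cutoff, at a log2 ratio of 1.37 (0.94 to 1.82). Expressed genes of 995 to 1255 bases had a median of 0.37 in this comparison, which was not divided out here. *Socs3*, the feedback inhibitor of gp130 signalling, was the single gene over 2.5-fold lower in double KO cells at day 0, with 1269 reads in control and 406 reads in double KO cells. The median log2 ratio between the arms was −0.14 at day 0 and 0.24 at day 2.

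Regulators of cytokine mRNA decay and a MAPK phosphatase, 10 genes that were all expressed, included none past the cutoff between days in control cells (median log2 ratio 0.12) or between the arms at day 0 (0.14). In double KO cells, 2 were over 2.5-fold higher at day 2 and 1 was lower (median −0.01). *Zfp36l1*, which binds AU-rich elements, had 1683 reads at day 0 and 4668 at day 2, although 56.0% of its exon bases overlap an annotated noncoding gene on the opposite strand. *Arid5a*, which stabilizes *Il6* mRNA, had 177 and 464 reads, and *Zc3h12a*, the nuclease regnase-1, 225 and 69 reads. *Dusp1*, the phosphatase that turns off p38 and JNK, was the 1 gene of this list past the cutoff between the arms at day 2, with 240 reads in control and 914 reads in double KO cells and a log2 ratio of 2.28 (2.07 to 2.49). Of 7 proteases that process chemokines, 5 were expressed and *Mmp14*, a membrane metalloproteinase, was the only one of these past the cutoff, lower at day 2 in control cells and higher in double KO cells at day 2 (medians of the 5 in these comparisons, −0.28 and −0.67). It was at 226 and 47.7 RPKM in control cells and 240 and 147 RPKM in double KO cells at day 0 and day 2. *Adam10* and *Adam17*, the sheddases of CX3CL1, were at between 10.9 and 37.0 RPKM in all libraries.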

How the data were processed

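RNA-Seq was analysed from Mll3-/-;Mll4 f/f brown preadipocytes after Ad-GFP (control) or Ad-Cre (double KO), with 1 library for each arm at day 0 and at day 2. The authors sequenced 50-base reads, aligned them to NCBI37/mm9 and deposited the count of reads on the exons of each RefSeq transcript as whole numbers, with the RPKM of the same transcript. The treatment of reads with several matches, and whether counting used strand, are not given in the sources used here.

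Exon lengths and mapped reads were recovered from the deposited count and RPKM. Symbols came from a RefSeq table (GRCm38.p6) for 97.8% of 29082 transcripts, and coordinates, transcripts and overlaps from GENCODE vM1 on NCBI37/mm9. The threshold of 1 RPKM and the 2.5-fold cutoff on ratios of RPKM were those of the study's methods. Here a gene above 1 RPKM in any library was called expressed, whereas the study took Ad-GFP cells for this, a rule run as an alternative. No test between conditions was possible with 1 library each. Exact binomial (ratios) and Poisson (levels) 95% intervals came from scipy 1.17.1 and are limited to counting error; the interval of a difference of log2 ratios used the Poisson variance of the log counts. The procedure was tested on simulated Poisson counts, scored for genes with many reads only. Counts as low as those of several of these genes at day 2, and spread between cultures, were not simulated. For TMM factors, edgeR 4.0.16 was run in R 4.3.3, without a test. Python 3.11.15, numpy 2.4.6, pandas 2.3.3, pysam 0.24.0 and matplotlib 3.10.9 were used.

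The 10 genes, the lists and 10 alternative settings were chosen with earlier results of these data known. From each of the 7 other lists, up to 2 genes with the largest rise and up to 2 with the largest fall past 2.5-fold in each comparison, with at least 20 reads in 1 of both libraries, were named. Other list genes and single markers, the counts of ATTTA, the matching of windows and the setting with the transcript of highest RPKM were chosen after values were seen. The planned description of cysteine spacing was not made, because no protein sequences were used here. One receptor gene of the planned list is not reported here.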

Additional observations from a re-analysis of the deposited data

Results flagged for a closer look

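Log2 ratios on opposite sides of 0 were found for 4 of the 10 genes, each from 1 library per condition, and none of these differences was tested. The ratio of double KO to control was −0.42 at day 0 and 1.49 at day 2 for *Ccl2*, which rests on 5 and 11 reads at day 2. It was −0.42 at day 0 and 0.35 at day 2 for *Ccl7*, on 3 reads in each arm at day 2, and the day 2 value became −0.17 after the division by length. It was 0.25 at day 0 and −0.46 at day 2 for *Cxcl10*, on 7 and 4 reads at day 2. The ratio of day 2 to day 0 was 0.58 in control cells and −1.59 in double KO cells for *Il6*, with 1 and 2 reads in control cells. All 8 of these values except the day 0 ratio of *Ccl2* have counting intervals that include 0. That ratio became −0.24 after the division by length.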

How the results depend on the processing

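Of 88 counts of genes past the cutoff recomputed under 11 alternatives, 79 stayed within 1.5 times the reported count and 9 did not. Many of the 79 belong to reported counts of 0, which stay within this bound only as 0. At day 0, the count higher in double KO cells became 1 (*Il6*) with genes above 0.5 RPKM taken as expressed, and the count lower became 1 at 4-fold, 1 with the mean RPKM over transcripts and 1 with the transcript with the highest RPKM, an alternative chosen after the data were seen, since *Cxcl12* is then short of the cutoff in the last 2 settings and *Cx3cl1* alone is left at 4-fold. At day 2, the count higher in double KO cells became 1 (*Cxcl1*) at 4-fold, 0 with a pseudocount of 1 RPKM, 0 when the bound of the interval had to pass the cutoff and 0 with at least 20 reads over the pair, and the count lower became 1 (*Cx3cl1*) at 2-fold. Division by the length trend left 2 genes higher at day 2, but *Csf1* in place of *Ccl2*, and added *Cxcl1* to those lower at day 2 in double KO cells, which made 6. TMM factors moved log2 ratios by at most 0.13, in the comparison of the arms at day 2. Of 180 log2 ratios recomputed, 150 stayed within their counting interval, 30 moved out of it and none past the cutoff turned its sign. No paired analysis was possible because each condition has 1 library, and leaving out a library was not possible either. Depth limits *Ccl2*, *Ccl5*, *Ccl7*, *Cxcl1*, *Cxcl10* and *Il6* at day 2, each with at most 11 reads per library.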
